A study of Mus musculus with 8 samples.

Results

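Slc20a1 and Abcc5 encode membrane transporters that work in opposite directions. They were taken by name from the deposited small intestinal (SI) expression table and make up 2 of its 119 genes. The table compares whole SI tissue of C57BL/6 mice, 4 WT libraries from wild type animals and 4 Smarcad1-KO (KO) libraries from animals in which Vil-Cre removed exons 12 to 14 of the chromatin remodeler Smarcad1. Vil-Cre is expressed from the Villin promoter and acts in the intestinal epithelium, so muscle, stroma and immune cells of the same tissue kept the gene. The KO mice came from a line founded on 1 targeted ES cell clone. The paper gives its mice as male, apart from female donors of microbiota in its colitis experiments. Neither the age in this experiment nor whether the WT mice carried the loxP sites or Cre is given in the sources used here. The paper states matching of age, and of litter where possible, for its colitis experiments and not for these libraries. Nothing ties a replicate number to a litter or states that each library is a separate animal. The p-values therefore measure the spread between these samples.

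Slc20a1 (also called PiT-1) imports inorganic phosphate together with sodium. It is present in most cell types, and it is known as the cell surface receptor that some gammaretroviruses use for entry. In the gut, uptake of dietary phosphate across the brush border is ascribed mainly to a different carrier family, with Slc20a1 regarded as a supplier of phosphate to the cell itself. Abcc5 (also called MRP5) is an ATP-binding cassette pump that exports organic anions, among them cyclic nucleotides, and it also carries heme out of cells.

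The study had selected all 119 genes for a difference between these same libraries, so a test of any of them here is not independent evidence of a difference. Values are in RPKM, reads scaled to the gene's length in kilobases and to the library's mapped reads, and the values themselves showed that the kilobase was one of genomic span, introns included. Library depth was fitted from the values. The smallest depths that turned them into whole reads lay between 56981718 and 78026422 mapped reads. As a check of the labels, Smarcad1 averaged 0.334 ± 0.0288 RPKM (SD) over the 4 WT libraries and 0.235 ± 0.0308 RPKM (SD) over the 4 KO libraries, and each KO library lay below each WT library. Smarcad1 fell by 0.37 ± 0.11 (SE) on the log2(RPKM + 0.1) scale (limma adjusted p = 0.0106). The size depends on the value added to the RPKM (the pseudocount). With 0.01 in place of 0.1 the log2 change was -0.49, and with 1 it was -0.11.

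Slc20a1 lies on chromosome 2 from 129198764 to 129211616 on the plus strand (GRCm38). Its principal transcript has 11 exons over 3316 bases, of which 2043 code for 681 amino acids. Abcc5 lies on chromosome 16 from 20331303 to 20426394 on the minus strand. Its principal transcript has 30 exons over 5811 bases, of which 4308 code for 1436 amino acids. The spans are thus 12.9 kb and 95.1 kb, and merged exons fill 43.4% of the first and 11.2% of the second.

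**Figure D1:**
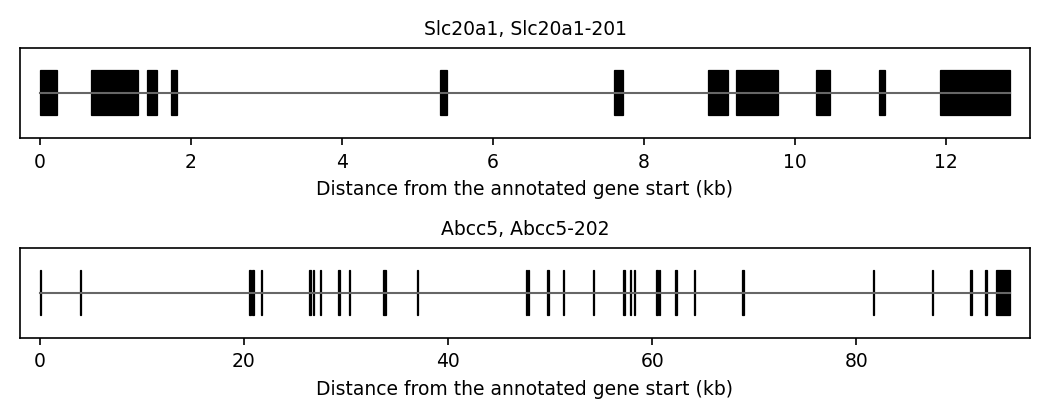
Exons of the principal transcripts of Slc20a1 (top) and Abcc5 (bottom), drawn to scale as black boxes against the distance in kb from the annotated gene start, read 5′ to 3′. The 11 exons of Slc20a1 make up 3316 bases of a 12.9 kb gene, whereas the 30 exons of Abcc5, with 5811 bases, are spread thinly over 95.1 kb.

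Slc20a1 has 8 annotated transcripts and Abcc5 has 13. As a description of sequence, the stretches before an annotated start of each gene are shown. Both are the 250 bases before the start annotated by RefSeq (GRCm38.p6), chr2:129198523-129198772 on the plus strand for Slc20a1 and chr16:20426395-20426644 on the minus strand for Abcc5. Capitals mark matches, on either strand, to 4 short motifs of mammalian promoters, the TATA box (TATAAA), the CCAAT box (CCAAT), the E-box (CACGTG) and the GC box (GGGCGG).
Slc20a1 promoter: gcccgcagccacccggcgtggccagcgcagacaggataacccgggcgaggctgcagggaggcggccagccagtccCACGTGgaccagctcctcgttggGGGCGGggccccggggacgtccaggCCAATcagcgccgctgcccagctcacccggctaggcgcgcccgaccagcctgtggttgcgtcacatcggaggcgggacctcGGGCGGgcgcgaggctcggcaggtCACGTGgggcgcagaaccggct
Abcc5 promoter: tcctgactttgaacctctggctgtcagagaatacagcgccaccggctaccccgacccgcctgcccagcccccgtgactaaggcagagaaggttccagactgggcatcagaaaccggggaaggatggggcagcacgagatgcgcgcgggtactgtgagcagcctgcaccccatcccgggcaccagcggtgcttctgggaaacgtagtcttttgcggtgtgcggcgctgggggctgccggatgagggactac

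The Slc20a1 stretch was 75.2% G and C with 29 CpG sites, and the Abcc5 stretch 64.0% with 17 CpG sites. The medians over 32851 promoter windows of the same length were 52.4% and 6. In Slc20a1 the motifs found were 2 E-boxes, which start 175 and 22 bases before the start, 2 GC boxes at 152 and 46 bases and 1 CCAAT box at 127 bases. None of these motif matches overlaps another. Of all windows, 6.02% held an E-box, 32.7% a GC box, 33.8% a CCAAT box and 12.4% a TATA box. A TATAAA match of Slc20a1 begins at the last base before the start and so runs out of the window. The Abcc5 window matched none of the 4 motifs in these letters. These matches are a description of sequence and were not tested as binding sites.

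Abcc5 was higher in the KO tissue. Its level was 0.251, 0.258, 0.336 and 0.226 RPKM in WT libraries 1 to 4 and 0.407, 0.444, 0.409 and 0.380 RPKM in KO libraries 1 to 4. The highest WT library, replicate 3, stayed below the lowest KO library, replicate 4, so the groups did not overlap. The mean rose from 0.268 ± 0.0474 to 0.410 ± 0.0264 RPKM (SD, n = 4 each), an increase of 53.1%. In such bulk tissue, a change in the number of cells of a type and a change in RNA per cell cannot be told apart. On the log2(RPKM + 0.1) scale the change was 0.48 ± 0.11 (SE), with a 95% confidence interval from 0.22 to 0.73 and a limma adjusted p of 0.00496 over the 119 genes. At levels of this size the pseudocount of 0.1 lowers the log2 change, which was 0.61 with a pseudocount of 0.01 and 0.15 with a pseudocount of 1. The adjusted p stayed under 0.05 in each of these, and in every fit that left out 1 library, where it ran from 0.00196 to 0.0154.

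Slc20a1 had a lower mean in KO, but the difference did not pass the limma test used here. The study's own test on these libraries had selected the gene, so the call depends on the test. Its level was 2.85, 2.75, 2.40 and 2.06 RPKM in WT libraries 1 to 4 and 2.37, 2.11, 1.89 and 2.23 RPKM in KO libraries 1 to 4. The groups overlapped, since WT replicate 4 lay below 3 of the KO libraries, while the other 3 WT libraries lay above all 4 of them. The WT mean of 2.52 ± 0.358 RPKM compared with a KO mean of 2.15 ± 0.202 RPKM (SD, n = 4 each), which is 14.6% lower. The log2 change was -0.21 ± 0.13 (SE), with a 95% confidence interval from -0.50 to 0.07 and a limma adjusted p of 0.148. The interval holds a loss as large as -0.50 as well as no change at all.

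**Figure D2:**
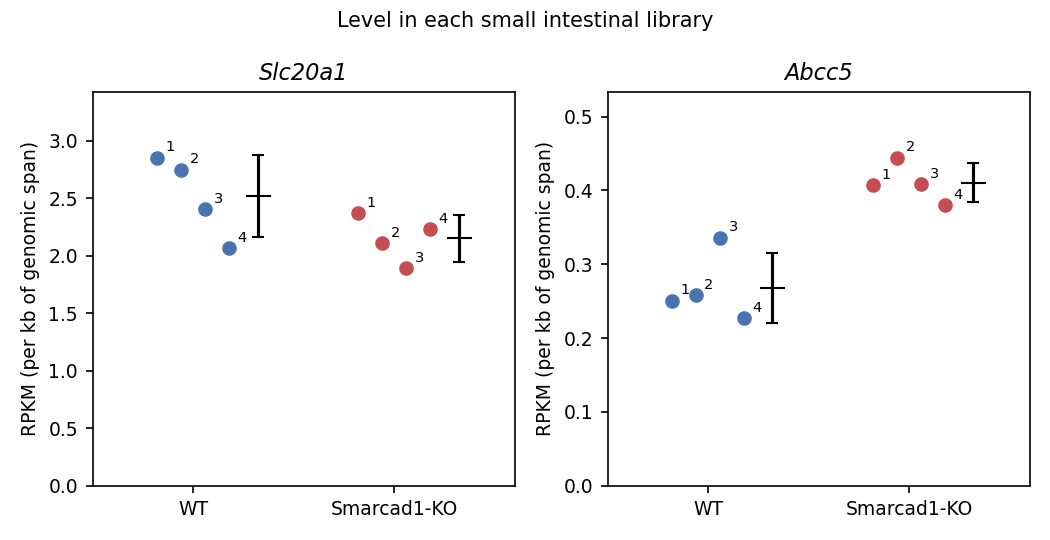
RPKM per kb of genomic span (vertical axes, from 0) of Slc20a1 and Abcc5 in each WT (blue) and Smarcad1-KO (red) library, with replicate numbers beside the points and bars giving the mean ± SD of 4 libraries. For Abcc5 all 4 KO points lie above all 4 WT points, whereas for Slc20a1 the WT points, from 2.06 to 2.85, span most of the KO points, from 1.89 to 2.37.

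The outcome for Slc20a1 depended on how libraries were scaled to each other and on WT replicate 4. With libraries rescaled by the median ratio over the listed genes, in place of the mapped reads, its log2 change was -0.36 with a limma adjusted p of 0.0291. The rescaled levels ran from 2.31 to 3.46 in WT and from 1.75 to 2.23 in KO and no longer overlapped. Of all 119 genes, 96.6% passed with this scaling, and the share without overlap after it was not computed. The same scaling left Abcc5 at 0.36 with a limma adjusted p of 0.00527. The scaling factors came from 113 of the listed genes, all selected for a difference between the groups, so this is not a neutral alternative. They ran from 0.825 to 1.04 in WT and from 0.997 to 1.08 in KO. Without WT replicate 4, the log2 change of Slc20a1 was -0.30 and its limma adjusted p was 0.0490.

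**Figure D3:**
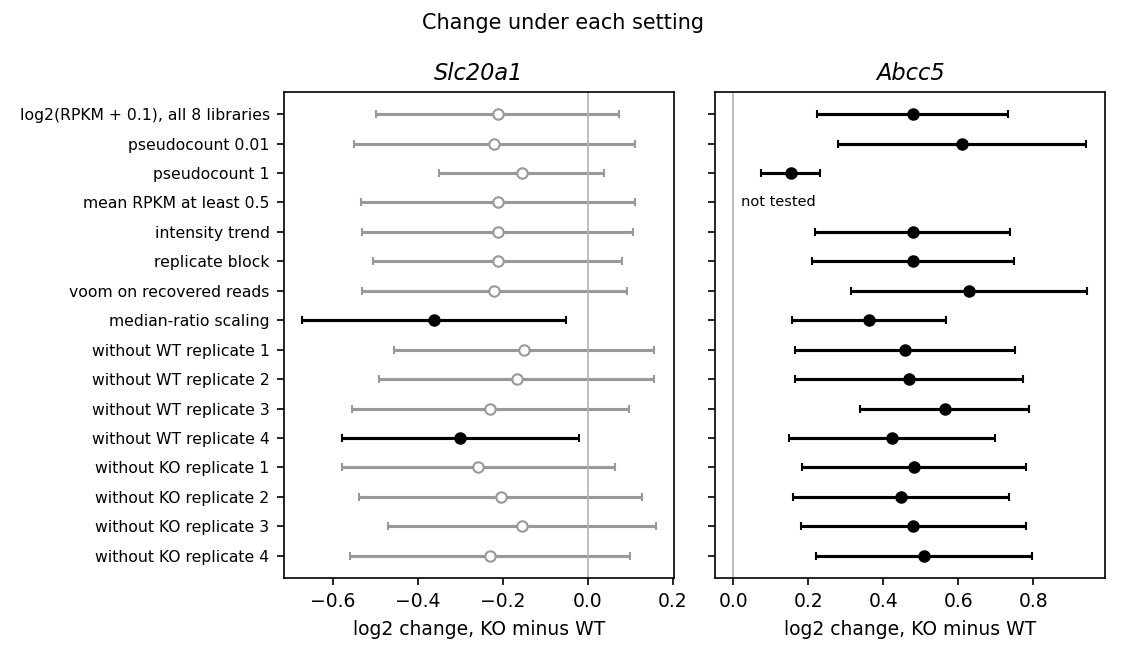
Change of Slc20a1 and Abcc5 as KO minus WT on the log2 scale (horizontal axes) with 95% confidence intervals, for each setting on the vertical axis, filled black where the limma adjusted p was under 0.05 and open grey where it was not. Abcc5 was filled in each setting in which it was tested (its mean RPKM is under 0.5), and Slc20a1 only with median-ratio scaling and without WT replicate 4.

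Among all 119 genes, 79.0% passed the limma test, 48.7% as higher and 30.3% as lower in KO. The groups did not overlap in 71.4%, with KO above WT in 48.7% and below it in 22.7%. Of the pair, 1 of 2 genes passed, and the same gene was the one without overlap. Abcc5 thus behaved like most of the genes with a higher mean in KO, of which 58 of 59 passed. Slc20a1 was among the 24 of 60 genes with a lower mean that did not pass. Both had modest changes within this selection. Of the 59 genes with a higher mean, 50 had a larger ratio than the 1.53 of Abcc5, and of the 60 genes with a lower mean, 52 had a ratio further below 1 than the 0.854 of Slc20a1. With median-ratio scaling 96.6% of the genes passed, 48.7% as higher (58 genes) and 47.9% as lower (57 genes), so the share of passing genes that were higher went from 61.7% to 50.4%. The scaling factors came from these same selected genes, so the new split is not independent of them.

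At the fitted depths, between 1482 and 2249 reads lay in Slc20a1 in each library and between 1358 and 2862 in Abcc5. Counting error alone would give a median coefficient of variation of 2.23% for Slc20a1 and 2.14% for Abcc5. The observed variation was 14.2% in WT and 9.38% in KO for Slc20a1, and 17.7% in WT and 6.45% in KO for Abcc5, in each case more than counting error alone. The expected values cover counting error only, and the part of depth in either result was not tested.

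A direct comparison asked whether the pair changed by different amounts. It was made within each library, where the scaling to mapped reads cancels apart from the pseudocount. The level of Slc20a1 was 11.4, 10.6, 7.16 and 9.11 times that of Abcc5 in WT libraries 1 to 4, both per kb of span. It was 5.81, 4.75, 4.63 and 5.87 times that of Abcc5 in KO libraries 1 to 4. All 4 KO libraries had a lower ratio than all 4 WT libraries. On the log2(RPKM + 0.1) scale Slc20a1 exceeded Abcc5 by 2.83 ± 0.25 among the WT libraries and by 2.14 ± 0.17 among the KO libraries (SD, n = 4 each). The difference narrowed with a change of -0.69 (p = 0.0286 by a two-sided exact permutation test, where 4 against 4 libraries allow no smaller p). The change was -0.83 with a pseudocount of 0.01 and -0.31 with a pseudocount of 1, each again at the smallest p. This p shares the limit of the others, since both genes were on a list drawn from the same libraries.

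By how much Slc20a1 exceeded Abcc5 depended on the length used. Divided by merged exon length, on the assumption that all reads lay in exons, the level of Slc20a1 was 5.80 ± 0.825 in WT and 4.95 ± 0.465 in KO, and that of Abcc5 was 2.38 ± 0.422 in WT and 3.65 ± 0.235 in KO (RPKM per exonic kb, SD, n = 4). On that scale the mean ratio of Slc20a1 to Abcc5 was 2.48 in WT and 1.36 in KO, against 9.57 and 5.27 per kb of span. Slc20a1 stayed the higher of the pair in all 8 libraries on both scales. The methods name exons as the counted part, yet the values were divided by the span, and the table does not show which part held the reads. The size of the ratio between the genes is therefore uncertain. The ratio of KO to WT of a single gene is the same on both scales, but its change on the log2(RPKM + 0.1) scale is not, since the pseudocount weighs more on lower values.

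The Slc20a1 reads carry a further uncertainty. The noncoding gene 9830144P21Rik lies on the other strand, from 129205958 to 129230579, and shares 5659 bases with Slc20a1, or 44.0% of its span, including 2444 bases of its merged exons. Gm4430, also on the other strand, shares 431 bases at its 5′ end. No source used here states that reads were counted by strand, so reads of these genes and of Slc20a1 cannot be told apart. No annotated gene overlaps Abcc5.

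The table held 4 genes of the solute carrier (Slc) and ATP-binding cassette (Abc) families, the pair and Abca1 and Slc14a1. By limma 2 of the 4 passed, Abcc5 and Abca1, both higher in KO, and neither Slc gene did. Of all 119 genes 79.0% passed, 48.7% as higher and 30.3% as lower, so the share among the 4 was not above that of the table. Their median log2 change was 0.10, and that of all 119 genes was -0.07. Abca1, which exports cholesterol and phospholipid, was at 0.208, 0.195, 0.224 and 0.209 RPKM in WT libraries 1 to 4 and at 0.359, 0.271, 0.287 and 0.334 RPKM in KO libraries 1 to 4. The groups did not overlap, and the log2 change was 0.41 ± 0.10 (SE, limma adjusted p = 0.00592), close in size to that of Abcc5. Slc14a1, a urea transporter, was far lower per kb of span, with 68 to 243 reads per library. The WT libraries lay between 0.0514 and 0.0822 RPKM, the KO libraries between 0.0266 and 0.0507 RPKM. Its groups were barely apart, and the KO mean was 36.8% lower. Its log2 change of -0.22 ± 0.11 (SE) missed the threshold at the pseudocount of 0.1 (limma adjusted p = 0.0950), which is larger than all of its values. With a pseudocount of 0.01 the change was -0.57 (limma adjusted p = 0.0332), and it was -0.71 by voom on the recovered reads (limma adjusted p = 0.0268), so its -0.22 is not comparable in size with the -0.21 of Slc20a1.

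Genes with related tasks were few in the table. Of 21 genes of phosphate handling and 9 known retrovirus receptors, Slc20a1 was the only one in either list. Of 26 genes of heme handling, the table held Abcc5 and Alad, an enzyme of heme synthesis. Alad rose more than Abcc5, from 2.54 ± 0.432 to 6.46 ± 1.27 RPKM (SD, n = 4 each), with a log2 change of 1.31 ± 0.17 (SE, limma adjusted p = 3.53e-04) and no overlap between the groups. Both heme genes in the table were thus higher in KO, where 48.7% of all listed genes passed in that direction. Of 40 genes of cyclic nucleotide handling, the table held Abcc5 and Adcy8, an adenylyl cyclase that makes cyclic AMP. Adcy8 averaged 0.236 ± 0.0541 RPKM among WT and 0.196 ± 0.0166 RPKM among KO libraries (SD, n = 4 each), with overlapping groups and a log2 change of -0.18 ± 0.12 (SE, limma adjusted p = 0.206). With median-ratio scaling, where 96.6% of all 119 genes passed, Adcy8 passed too, at -0.28 (limma adjusted p = 0.0230). Its WT mean was raised by replicate 3 at 0.317 RPKM, the library in which Abcc5 was also highest within WT. Genes of these lists that are not in the table were not analysed here.

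**Figure D4:**
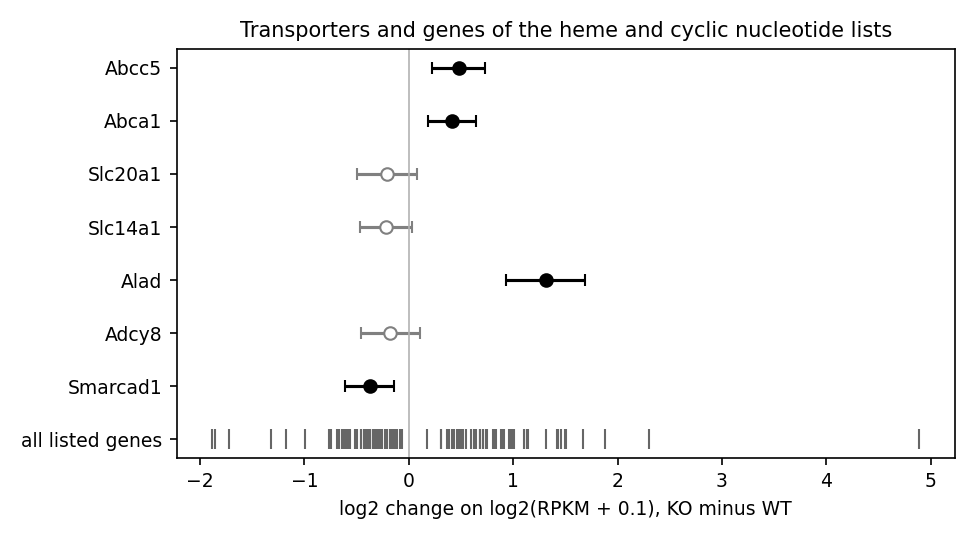
Log2 change with its 95% confidence interval (horizontal axis, KO minus WT on log2(RPKM + 0.1)) for the 4 transporter genes, Alad, Adcy8 and Smarcad1, with a tick for each of the 119 listed genes in the bottom row. Filled points have a limma adjusted p under 0.05. Abcc5 and Abca1 lie side by side near 0.48 and 0.41, Alad at 1.31, and the intervals of Slc20a1, Slc14a1 and Adcy8 reach across 0.

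Libraries that were high or low for a transporter within their own group were compared with the other listed genes, as a description. Deviations of log2(RPKM + 0.1) from the group mean were correlated over the 8 libraries, among genes with a mean of at least 0.5 RPKM. The values share a library and its scaling, so part of any likeness may be common to all genes. Those most like Slc20a1 were Ide, the insulin-degrading enzyme (Pearson r = 0.73, Spearman rho = 0.67), the transcription factor Klf11 (0.69, 0.64) and the calcium-binding S100a16 (0.68, 0.57). Those most like Abcc5 were the alkaline ceramidase Acer1 (0.83, 0.88), the tubulin Tubb2a (0.81, 0.76) and Fam108a (0.80, 0.76). Within these sets the genes did not share a direction between genotypes. Klf11, Acer1 and Fam108a rose, with log2 changes of 0.68, 0.64 and 0.69 and limma adjusted p of 0.00122, 0.00178 and 0.00450. Ide, S100a16 and Tubb2a had lower means in KO and did not pass, with log2 changes of -0.23, -0.16 and -0.22 and limma adjusted p of 0.102, 0.166 and 0.279. With median-ratio scaling these 3 passed, at -0.37, -0.31 and -0.37 (limma adjusted p of 0.00799, 0.0178 and 0.0156). So did 96.6% of all 119 genes under that scaling, whose factors came from the selected genes themselves. Ide also passed without WT replicate 4, at -0.32 (limma adjusted p = 0.0340).

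On chromosome 2 the listed genes nearest to Slc20a1 were 2010106G01Rik (the protease gene Sppl2a), 2.27 Mb before it, and Zcchc3, 23.2 Mb after it. 2010106G01Rik rose by 0.72 ± 0.14 on the log2 scale (SE, limma adjusted p = 0.00238) and Zcchc3 by 0.75 ± 0.18 (SE, limma adjusted p = 0.00496), whereas the change of Slc20a1 was -0.21. On chromosome 16 the nearest to Abcc5 were the olfactory receptor gene Olfr165, 0.923 Mb before it in coordinates, and AI480653, 10.5 Mb after it. Olfr165 rose by 0.84 ± 0.19 on the log2 scale (SE, limma adjusted p = 0.00434) and AI480653 by 0.31 ± 0.10 (SE, limma adjusted p = 0.0166), the direction of Abcc5. AI480653 lay between 0.0830 and 0.169 RPKM, where the pseudocount of 0.1 lowers the log2 change. The ratio of the KO mean to the WT mean was 1.82 for Olfr165, 1.49 for AI480653 and 1.53 for Abcc5. Of all 119 genes, 48.7% passed as higher in KO, and a part of position in these changes was not tested.

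Of the cell type markers listed, 12 Paneth cell genes, most of them alpha-defensins, were in the table. The Paneth list named 7 genes and took in every symbol that starts with Defa or Defcr. All 12 had lower means in KO, as did 60 of all 119 genes. Their summed level ran from 3701 to 5133 RPKM in WT and from 2967 to 3866 RPKM in KO, and none was at 0 in any library. The paper names Itln1, Ang4, Defa22 and Defa26 among genes that it describes as mostly upregulated in KO across its datasets. Of 14 pancreatic acinar markers the table held Clps and Pnliprp2, whose sum ran from 26.2 to 37.1 RPKM among WT libraries and from 20.1 to 27.0 RPKM among KO libraries, with neither at 0. Of 5 stem cell markers it held Ascl2, with WT libraries at 1.56 to 3.30 RPKM and KO libraries at 1.66 to 1.96 RPKM. The part of these cell types in the changes of Slc20a1 and Abcc5 was not tested. The table held 0 markers of enterocytes, goblet cells, enteroendocrine cells, smooth muscle, lymphoid, myeloid, stromal or enteric nerve cells, so the label of whole tissue could not be checked against them.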

How the data were processed

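RNA was measured in 4 WT and 4 KO libraries of whole SI tissue, grouped by sample title. Per the labels and the methods, the authors trimmed reads with Trim Galore 0.4.1, mapped them to GRCm38 with HISAT2 2.0.1 and used SeqMonk to count uniquely mapped reads over the exons of merged transcripts. The authors deposited 1 RPKM value per library for genes that passed their own DESeq2 test, group means of RPKM, and an FDR (an adjusted p-value). Of these, only the values per library were used. Multiplying RPKM by the file's span and a fitted depth gave whole reads (within 0.05) for all 939 values above 0, and the smallest such depth was taken. 0 columns of other samples were present. No libraries of a group agreed within sampling noise.

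Levels are mean ± SD. All 119 genes were tested with limma 3.58.1 in R 4.3.3 on log2(RPKM + 0.1), with group as the only term, Benjamini-Hochberg adjustment over all 119 genes and a threshold of 0.05. Single values were compared by exact permutation tests over libraries. Alternatives were other pseudocounts, a minimum mean of 0.5 RPKM, an intensity trend, exact permutation for each gene, replicate numbers as blocks, voom on the recovered reads, median-ratio scaling, medians, a threshold of 0.01 and leaving out each library. The median-ratio factors came from the selected genes themselves. Annotation came from GENCODE mouse release M21, whose coordinates of both genes equal those of the file, and promoters from RefSeq. Both genes matched by symbol.

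The 2 genes and all lists were chosen with earlier results of these data known. Genes named were the pair, Smarcad1, listed genes of the transporter families and pathway lists, the 3 genes most like each of the pair, and the nearest listed gene on each side.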

Additional observations from a re-analysis of the deposited data

How the results depend on the processing

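Abcc5 kept its direction and its side of the threshold in all 15 recalculations by limma or an exact test, with log2 changes from 0.42 to 0.56 when 1 library was left out. It could not be fitted with the minimum mean of 0.5 RPKM, which it does not reach, nor could Smarcad1. Slc20a1 kept a lower mean in KO in all 16 and passed the threshold in 2 of them, at -0.36 (limma adjusted p = 0.0291) with median-ratio scaling and without WT replicate 4, and ranged from -0.30 to -0.15 with 1 library left out (limma adjusted p from 0.0490 to 0.311). Smarcad1 ranged from -0.43 to -0.33 with 1 library left out. The 94 genes that passed became 56 of the 77 with a mean of at least 0.5 RPKM, where fewer were tested, and 62 at a threshold of 0.01, all of them among the 94 in both cases. Leaving out 1 library gave 86 to 99.

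Whether replicate numbers pair the libraries could not be decided. Deviations of same-numbered libraries correlated at 0.27, 0.21, -0.11 and -0.03 over 77 genes, and differently numbered libraries were not correlated for comparison. A fit with replicate block passed 90 genes, each one of the 94, Abcc5 stayed past the threshold (limma adjusted p = 0.0112) and Slc20a1 did not pass (limma adjusted p = 0.146). With numbers taken as pairs, the change of Slc20a1 against Abcc5 was again -0.69 (exact sign-flip test, two-sided, p = 0.125), the smallest p that 4 pairs allow. It ranged from -0.79 to -0.61 with 1 library left out, where no exact test was run. Of 220 recalculations for the other 14 genes named, 210 gave the same call, 10 gained it, 0 lost it and 0 changed direction. Of the gains, 5 fell on Slc14a1, 2 on Ide and 1 each on Adcy8, S100a16 and Tubb2a.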

Other observations

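In 38 groups of 4 libraries (17 named genes, the depth and the difference between the pair, in each genotype), 0 held a library whose gap to its neighbour exceeded Dixon's 95% critical value, where chance gives about 1.9. The nearest for the pair was Abcc5 in WT replicate 3, whose gap made up 0.711 of its group's range, also below the critical value.

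The listed genes whose deviations ran most against those of the pair, named after their values were seen, were the defensin gene Defa22 for Slc20a1 (Pearson r = -0.74 over 8 libraries) and the histone gene Hist1h2bk for Abcc5 (Pearson r = -0.72). Only uniquely mapped reads were counted, and both families hold closely similar copies, which leaves the values of Defa22 and Hist1h2bk uncertain.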
